A study of Homo sapiens with 12 samples.

Results

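SERPINB9, ELOVL4, HMGN5, DLC1, MROH6, TMEM52B and FLRT2 are 7 genes whose RNA differed in a single direction by over 2-fold in all 4 resistant models of a study of head and neck squamous cell carcinoma. They were chosen for that pattern, out of 58051 gene identifiers counted, and were matched to the count files by symbol. FaDu, a line from a hypopharyngeal squamous cell carcinoma, and Cal27, a line from a squamous cell carcinoma of the tongue, were grown with rising doses of afatinib, an inhibitor of several ERBB receptors, or of erlotinib, an inhibitor of EGFR. The resulting models are named FaDu AfaR, FaDu ErlR, Cal27 AfaR and Cal27 ErlR, and each was set against the untreated parental cells of its own line. All groups are labelled wild type, and poly(A) RNA of 2 biological replicates per group was sequenced, 12 libraries in all, with 16334937 to 23399259 reads counted on genes per library. The study's methods describe, for experiments in general, upkeep under drug and a day without it beforehand, and whether the sequenced RNA came from cells under drug is not given in the sources used here. There is a single resistant population per line and drug, and whether it is a clone is not stated.

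The 7 genes do unlike things in a cell. SERPINB9 is an intracellular serine protease inhibitor that blocks granzyme B, the protease with which cytotoxic lymphocytes kill their targets. ELOVL4 elongates fatty acids to very long chains, which skin uses in its barrier ceramides. HMGN5 binds nucleosomes and loosens chromatin that linker histones compact. DLC1 switches off small GTPases such as RHOA at focal adhesions, where tensins bind it. FLRT2 is a membrane protein whose ectodomain binds UNC5 receptors and latrophilins on other cells. MROH6, a protein of maestro heat-like repeats, and TMEM52B, a small membrane protein, have roles that are little described.

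Values are CPM, read counts scaled to library size, here with TMM factors over the 12 libraries, and a gene was called at a Benjamini-Hochberg adjusted p under 0.05 from edgeR's quasi-likelihood test and a difference of more than 2-fold (log2 above 1 or below -1). The genes were chosen by their resistant against parental log2 fold changes, so their values there are a description with no test. Of the 13995 genes tested in both lines, 47 (0.336%) differed by over 2-fold in a single direction in all 4 models, 30 higher and 17 lower, and 10 (0.0715%) were also called in all 4. These 10 hold all 7 genes and, named after their values were seen, PDCD1LG2 and IFI27, which were higher, and MMP7, which was lower. The calls come from the contrast that chose the genes, so nothing is read from them, and they depended on single FaDu libraries. Of the 7, 1 was called in all 4 models without FaDu parental replicate 1, 2 without FaDu parental replicate 2 or FaDu ErlR replicate 2, 3 without FaDu AfaR replicate 2, 4 without FaDu AfaR or ErlR replicate 1, and 5 to 7 when 1 Cal27 library was left out. Judged by the model in which each gene differed least, ELOVL4 (log2 fold change 1.01) and SERPINB9 (-1.02) lay just inside the 2-fold limit, beside MANCR (1.00). PAK3 (0.99), WNT5B (0.99) and FHL1 (0.98) lay just outside it on the higher side, and ITGB2 (-0.95), MUC2 (-0.94) and ANKRD10-IT1 (-0.93) on the lower side. Among all tested genes, 7.43% were called in FaDu AfaR and 2.05% in FaDu ErlR, and the Cal27 models gave 19.6% with afatinib and 13.5% with erlotinib.

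Squamous epithelial markers were counted in all libraries. All 9 squamous markers reached 1 CPM in both libraries of 5 groups, and 8 did so in Cal27 AfaR, where the summed level was 882 to 983 CPM against 3930 to 5060 CPM in Cal27 parental cells. The 4 fibroblast markers summed to 283 to 289 CPM in Cal27 AfaR and to 28.8 to 39.8 CPM in Cal27 parental cells. The study reported higher N-cadherin and vimentin protein in Cal27 AfaR without a decrease of E-cadherin. It called this compatible with a partial epithelial-mesenchymal transition. The 4 leukocyte markers summed to 2.92 to 6.24 CPM in any library, with the T cell gene CD3E at 0 counts in both libraries of 5 groups, and the 3 endothelial markers to at most 37.4 CPM. The part of these differences in the values of the 7 genes was not tested, and in bulk RNA a change in the share of cells and a change in RNA per cell cannot be told apart.

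HMGN5 (ENSG00000198157, GRCh38 chromosome X, 81113701 to 81201942, minus strand) showed the widest difference of the 7 in 3 models, while in Cal27 AfaR MROH6 differed by as much. Parental cells held almost none of its RNA, with 0.243 and 0.572 CPM in FaDu and 0.350 and 0.117 CPM in Cal27, from 5, 11, 6 and 2 counts. FaDu AfaR libraries had 12.6 and 14.3 CPM and FaDu ErlR libraries 7.54 and 6.28 CPM. Cal27 AfaR libraries had 2.75 and 3.25 CPM, whereas the Cal27 ErlR libraries were far apart at 4.22 and 15.4 CPM. Every resistant library was above every parental one. The log2 fold changes were 5.02 (standard error 0.354) in FaDu AfaR and 4.07 (0.361) in FaDu ErlR, and in the Cal27 models 3.65 (0.785) for AfaR and 5.33 (0.745) for ErlR, and the size of each rests on the few parental counts. With single libraries left out, the FaDu values lay between 4.51 and 5.73 (AfaR) and between 3.56 and 4.78 (ErlR), and the Cal27 values between 3.08 and 4.60 (AfaR) and between 4.14 and 6.29 (ErlR).

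FLRT2 (ENSG00000185070, chromosome 14, 85530144 to 85654426, plus strand) was likewise low in parental cells, with 1.46 and 4.11 CPM in FaDu and 2.45 and 3.44 CPM in Cal27. It reached 7.62 and 8.47 CPM in FaDu AfaR and 19.8 and 10.9 CPM in FaDu ErlR. In Cal27 the AfaR libraries had 20.7 and 17.4 CPM and the ErlR libraries 19.9 and 15.9 CPM. The 2 parental groups overlapped each other, as did the 2 Cal27 resistant groups, while FaDu AfaR stood between them and the parental cells. On the log2 scale the differences from parental cells were 1.52 (standard error 0.436) in FaDu AfaR and 2.46 (0.438) in FaDu ErlR, and in the Cal27 models 2.69 (0.244) for AfaR and 2.58 (0.245) for ErlR. The FaDu AfaR value fell under 2-fold, to 0.94, when FaDu parental replicate 1 was left out, and was 2.44 without FaDu parental replicate 2.

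DLC1 (ENSG00000164741, chromosome 8, 13083361 to 13604610, minus strand) was higher by a like amount in all 4 models. Its parental libraries had 4.08 and 2.39 CPM in FaDu and 4.37 and 3.91 CPM in Cal27. FaDu AfaR libraries had 9.46 and 7.73 CPM and FaDu ErlR libraries 7.86 and 12.9 CPM. The Cal27 resistant libraries were all between 13.8 and 15.6 CPM and so above every FaDu library. The log2 fold changes ran from 1.38 (standard error 0.328) in FaDu AfaR to 1.82 (0.202) in Cal27 ErlR.

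ELOVL4 (ENSG00000118402, chromosome 6, 79914812 to 79947580, minus strand) differed least among the higher genes. FaDu parental libraries had 6.94 and 8.27 CPM, FaDu AfaR libraries 14.8 and 17.1 CPM, and FaDu ErlR libraries 16.8 and 14.0 CPM. Cal27 parental libraries had 3.09 and 3.44 CPM, AfaR libraries 6.43 and 9.58 CPM, and ErlR libraries 7.92 and 11.5 CPM. Within each line the resistant libraries stood above the parental ones, but the Cal27 AfaR libraries overlapped those of FaDu parental cells. The log2 fold changes were 1.05 (standard error 0.190) in FaDu AfaR and 1.01 (0.192) in FaDu ErlR, and in the Cal27 models 1.29 (0.301) for AfaR and 1.55 (0.301) for ErlR.

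SERPINB9 (ENSG00000170542, chromosome 6, 2887266 to 2903280, minus strand) was lower in every resistant library than in any parental one. Parental libraries had 25.8 and 26.1 CPM in FaDu and 20.9 and 25 CPM in Cal27. In FaDu the level was 6.16 and 7.82 CPM in AfaR and 11.9 and 10.6 CPM in ErlR, and in Cal27 it was 12.7 and 9.92 CPM in AfaR and 3.71 and 5.50 CPM in ErlR. The afatinib model thus held the lower level in FaDu and the erlotinib model in Cal27. The log2 fold changes were -1.91 (standard error 0.178) in FaDu AfaR and -1.22 (0.175) in FaDu ErlR, and in the Cal27 models -1.02 (0.231) for AfaR and -2.34 (0.250) for ErlR. GZMA had at most 2 counts in any library, as GZMB had, and PRF1 had 0 counts, so the protease that SERPINB9 inhibits was at or under the counting floor.

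MROH6 (ENSG00000204839, chromosome 8, 143566187 to 143572971, minus strand) had the largest gap between the lines. Both Cal27 parental libraries had 47.4 CPM, against 8.25 and 7.17 CPM in FaDu parental cells. Cal27 AfaR libraries had 4.59 and 2.79 CPM and Cal27 ErlR libraries 17.0 and 19.6 CPM. FaDu AfaR libraries had 1.75 and 2.88 CPM and FaDu ErlR libraries 2.94 and 3.14 CPM, so Cal27 ErlR cells held more MROH6 RNA than FaDu parental cells. The log2 fold changes were -1.75 (standard error 0.302) in FaDu AfaR and -1.35 (0.303) in FaDu ErlR, and in the Cal27 models -3.67 (0.233) for AfaR and -1.40 (0.204) for ErlR.

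TMEM52B (ENSG00000165685, chromosome 12, 10170542 to 10191801, plus strand) was the least abundant of the lower genes. The parental libraries lay close together, at 2.96 and 2.86 CPM in FaDu and 2.97 and 2.68 CPM in Cal27. FaDu AfaR libraries had 0.340 and 0.987 CPM and FaDu ErlR libraries 0.384 and 0.0654 CPM, the last from 1 count. Cal27 AfaR libraries had 0.324 and 0.755 CPM and Cal27 ErlR libraries 0.319 and 0.917 CPM. The 4 resistant groups overlapped one another in the order of their levels, and none reached a parental library. The log2 fold changes were -2.12 (standard error 0.557) in FaDu AfaR and -3.66 (0.690) in FaDu ErlR, and in the Cal27 models -2.39 (0.562) for AfaR and -2.20 (0.558) for ErlR. These sizes rested on single libraries of a few counts, with -3.09 in FaDu AfaR without its replicate 2, -1.58 without its replicate 1, -5.36 in FaDu ErlR without its replicate 1 and -2.91 without its replicate 2. In Cal27 they ran from -3.08 to -1.89 for AfaR and from -3.11 to -1.64 for ErlR over single libraries left out.

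**Figure D1:**
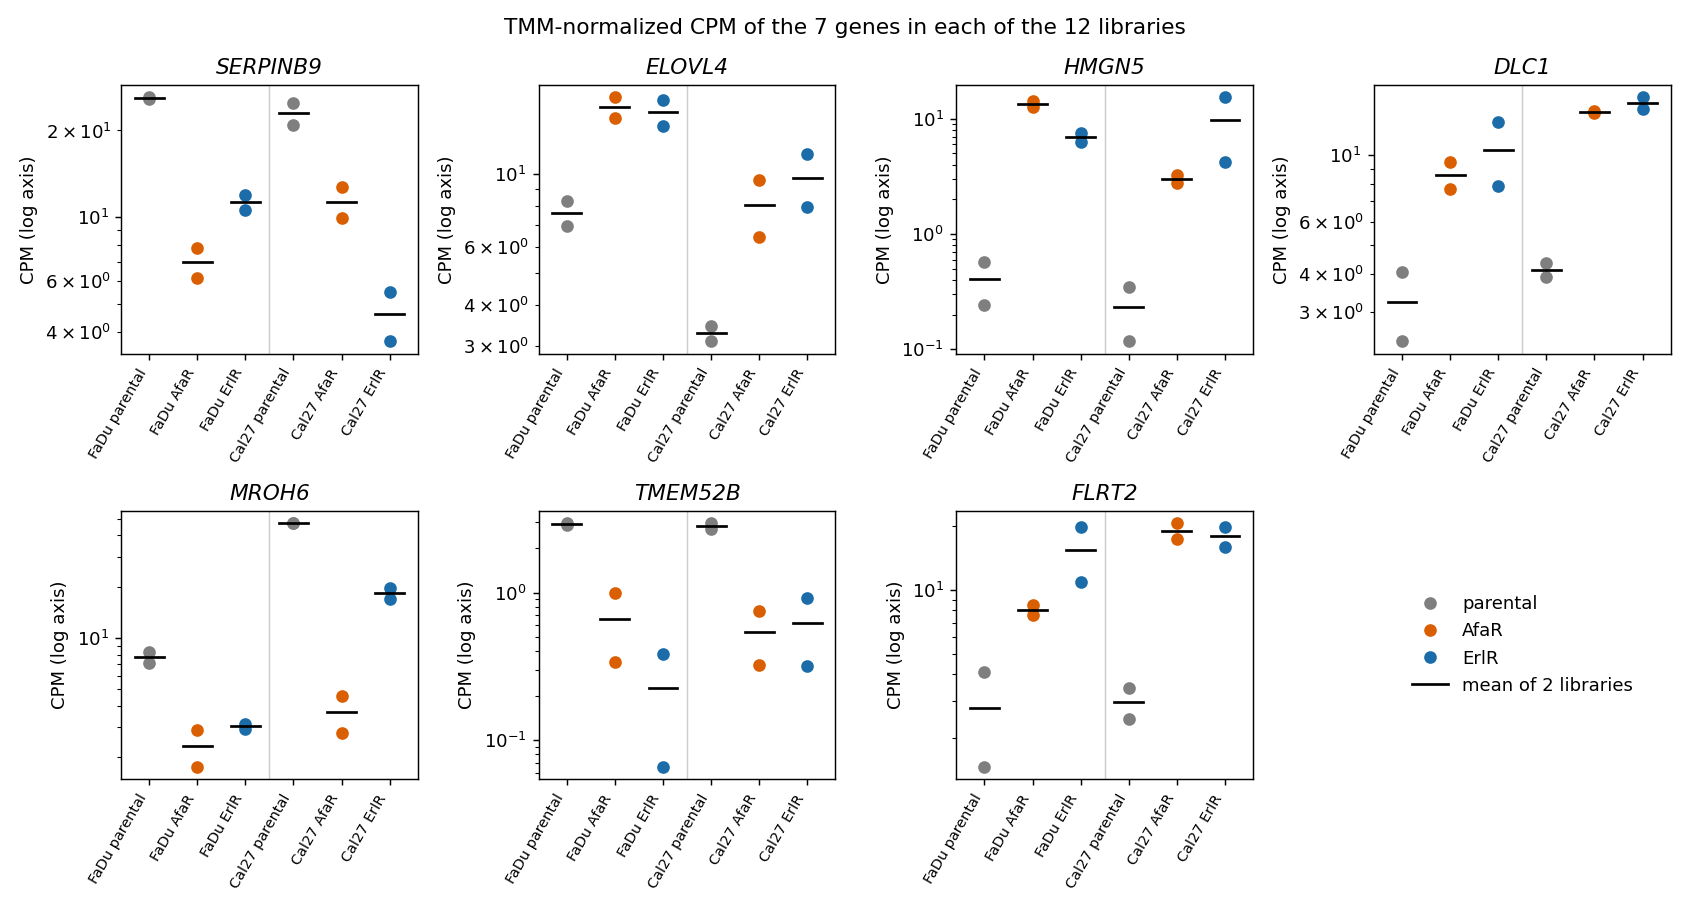
CPM of the 7 genes on log axes, a point for each library and a black line at the mean of the 2 libraries of a group, with parental, AfaR and ErlR groups of FaDu on the left and of Cal27 on the right of each panel. In all panels the resistant libraries of a line lie on a single side of its parental libraries, for example 2.75 to 15.4 CPM of HMGN5 in resistant Cal27 cells above 0.117 to 0.350 CPM in parental Cal27 cells.

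**Figure D2:**
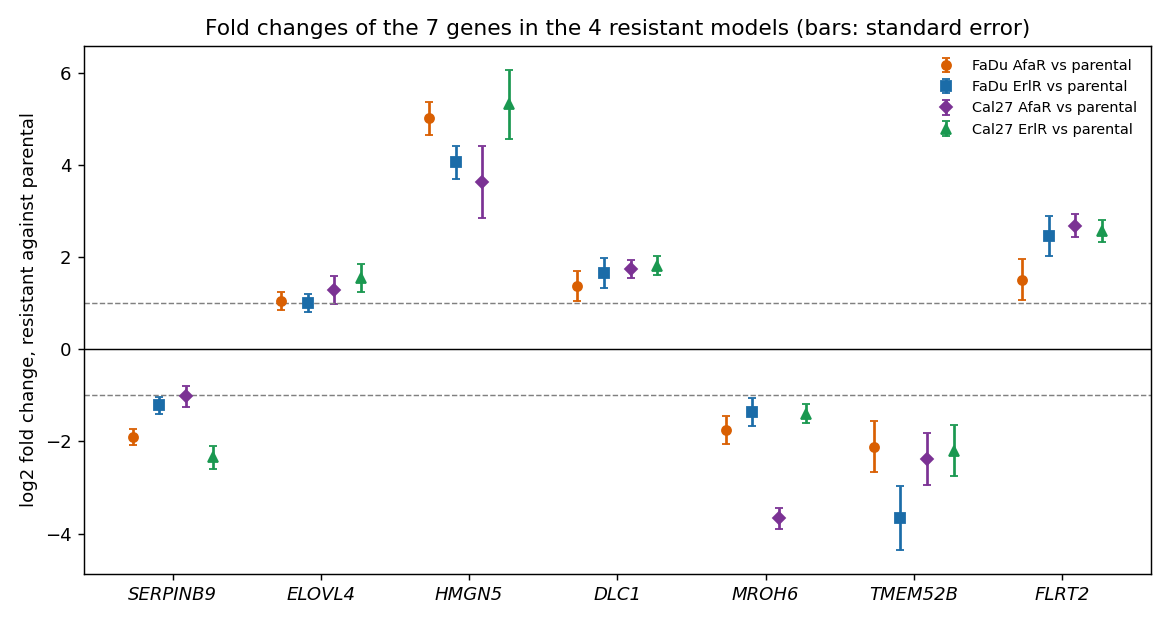
Log2 fold changes of resistant against parental cells with standard errors from edgeR, by gene and model, with dashed lines at 1 and -1. ELOVL4 (1.01 in FaDu ErlR) and SERPINB9 (-1.02 in Cal27 AfaR) touch the 2-fold limit that chose the genes, and HMGN5 lies between 3.65 and 5.33.

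Per kilobase of annotated exon, the measure that allows genes to be compared, the order in FaDu parental cells ran from SERPINB9 (6.30 ± 0.0543 CPM per kb, SD, n = 2) through ELOVL4 (2.5 ± 0.307), MROH6 (1.75 ± 0.173), TMEM52B (0.834 ± 0.0208), DLC1 (0.253 ± 0.0932) and HMGN5 (0.169 ± 0.0963) to FLRT2 (0.0797 ± 0.0537). In Cal27 parental cells MROH6 led at 10.8 ± 0.00707 CPM per kb and SERPINB9 followed at 5.57 ± 0.717, with FLRT2 again last at 0.0844 ± 0.0202. FLRT2 has 34899 bases of annotated exon in the count files, which lowers its level per kilobase. No exon base of the 7 genes is shared with another counted gene.

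The 7 genes sit on 5 chromosomes, and promoter windows of 300 bases around the RefSeq start were at hand for SERPINB9, ELOVL4, HMGN5 and FLRT2 (RefSeq on GRCh38.p14, 35116 windows in all). They were searched on both strands for the AP-1 motif TGANTCA, the TEAD motif GGAATG, the GC box GGGCGG, the CCAAT box CCAAT, the TATA box TATAAA, the E-box CACGTG, the STAT motif TTCNNNGAA and an interferon response motif. The stretches before the start are shown because they let the higher genes be set beside the lower SERPINB9, and capitals mark the motifs found. They lie at chr6:2903310-2903559 for SERPINB9 and chr6:79947554-79947803 for ELOVL4, both minus strand, at chr14:85529894-85530143, plus strand, for FLRT2, and at chrX:81201914-81202101, minus strand, for HMGN5, where the 188 bases up to the start of the neighbouring gene SH3BGRL are printed.
SERPINB9: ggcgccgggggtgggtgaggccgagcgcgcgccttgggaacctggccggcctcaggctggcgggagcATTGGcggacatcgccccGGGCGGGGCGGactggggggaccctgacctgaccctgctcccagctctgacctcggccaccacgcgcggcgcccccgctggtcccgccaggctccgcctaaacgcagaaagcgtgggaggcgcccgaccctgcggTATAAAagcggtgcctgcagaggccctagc
ELOVL4: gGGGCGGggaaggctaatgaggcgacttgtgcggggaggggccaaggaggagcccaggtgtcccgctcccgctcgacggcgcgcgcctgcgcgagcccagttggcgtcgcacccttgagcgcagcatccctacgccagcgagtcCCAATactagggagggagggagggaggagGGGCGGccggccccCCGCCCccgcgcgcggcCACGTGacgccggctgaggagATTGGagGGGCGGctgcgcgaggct
FLRT2: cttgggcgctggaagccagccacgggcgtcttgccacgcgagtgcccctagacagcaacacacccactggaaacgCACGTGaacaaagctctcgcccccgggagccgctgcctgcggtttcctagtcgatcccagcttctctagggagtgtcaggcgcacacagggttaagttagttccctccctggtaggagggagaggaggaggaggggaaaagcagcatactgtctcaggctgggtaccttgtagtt
HMGN5: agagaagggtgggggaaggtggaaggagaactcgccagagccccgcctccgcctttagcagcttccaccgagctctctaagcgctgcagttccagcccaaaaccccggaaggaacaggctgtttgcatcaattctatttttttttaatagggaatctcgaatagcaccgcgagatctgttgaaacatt

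SERPINB9 alone of the 4 held the TATA box, at position -30 from the start, which 11.5% of all windows hold, together with a CCAAT box and 2 GC boxes that share a base. ELOVL4 held 4 GC boxes, 2 CCAAT boxes and an E-box at -46. FLRT2 held an E-box at -175 and no other of the 8 motifs in its window, and HMGN5 held none of them in its window. RefSeq gives 3 windows for FLRT2, and only that nearest the gene's start in the counts is described. GC boxes occur in 45.0% of all windows, CCAAT boxes in 34.6% and E-boxes in 7.26%. The AP-1 (7.71% of all windows), TEAD (14.0%), STAT (7.66%) and interferon response (3.57%) letters were in none of the 4 windows. SERPINB9 and ELOVL4 had 35 and 32 CpG in 300 bases, counts that 14.1% and 18.9% of all windows reach, while FLRT2 had 19 and HMGN5 12 against a median of 14.

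The gene beside HMGN5 moved with it. SH3BGRL, which encodes a small thioredoxin-like protein, starts on the opposite strand with 188 bases between the RefSeq starts, so the printed HMGN5 stretch lies between the starts of both genes. It is not among the 7 genes, so its difference was tested. SH3BGRL had 7.48 and 7.75 CPM in FaDu parental cells, 16.0 and 22.3 CPM in FaDu AfaR and 13.7 and 15.9 CPM in FaDu ErlR. In Cal27 it had 1.63 and 1.11 CPM in parental cells, 9.99 and 8.01 CPM in AfaR and 10.4 and 12.0 CPM in ErlR. Resistant libraries were above the parental ones in both lines. SH3BGRL rose in FaDu AfaR (log2 fold change 1.31, adjusted p = 0.00570 from edgeR), in Cal27 AfaR (2.71, adjusted p = 0.000142) and in Cal27 ErlR (3.00, adjusted p = 0.000214). Its value of 0.95 in FaDu ErlR had an adjusted p of 0.0385 from edgeR and stayed under the 2-fold limit. Without FaDu parental replicate 1 the FaDu AfaR call was lost (highest adjusted p over all alternatives 0.0554 from edgeR).

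OLR1, the lectin-like receptor for oxidized low-density lipoprotein, lies beside TMEM52B, and the gene bodies overlap on opposite strands without a shared exon base. OLR1 had 27.6 and 26.4 CPM in FaDu parental cells, 9.31 and 22.9 CPM in FaDu AfaR and 2.81 and 1.31 CPM in FaDu ErlR. Cal27 parental libraries had 126 and 113 CPM, AfaR libraries 10.3 and 11.6 CPM and ErlR libraries 5.69 and 8.13 CPM. OLR1 fell in FaDu ErlR (log2 fold change -3.72), Cal27 AfaR (-3.45) and Cal27 ErlR (-4.14), with adjusted p-values of 0.00880, 3.21e-06 and 1.42e-05 from edgeR. In FaDu AfaR its value was -0.76 with an adjusted p of 0.171. Whether the counting used strand is not given in the sources used here, so reads of overlapping introns cannot be assigned to a strand.

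Over the 5 tested genes on each side of the 7 genes, 70 neighbours in all, the calls stayed near the background. In FaDu AfaR 7 were called higher and 0 lower (10.0%, against 7.43% of all tested genes), and in FaDu ErlR 1 higher and 1 lower (2.86%, against 2.05%). Cal27 AfaR had 9 higher and 7 lower (22.9%, against 19.6%) and Cal27 ErlR 1 higher and 8 lower (12.9%, against 13.5%). The FaDu AfaR count was 1 without FaDu parental replicate 1, 2 without FaDu parental replicate 2 and 4 without FaDu AfaR replicate 2, and the FaDu ErlR count was 1 without FaDu parental replicate 1.

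**Figure D3:**
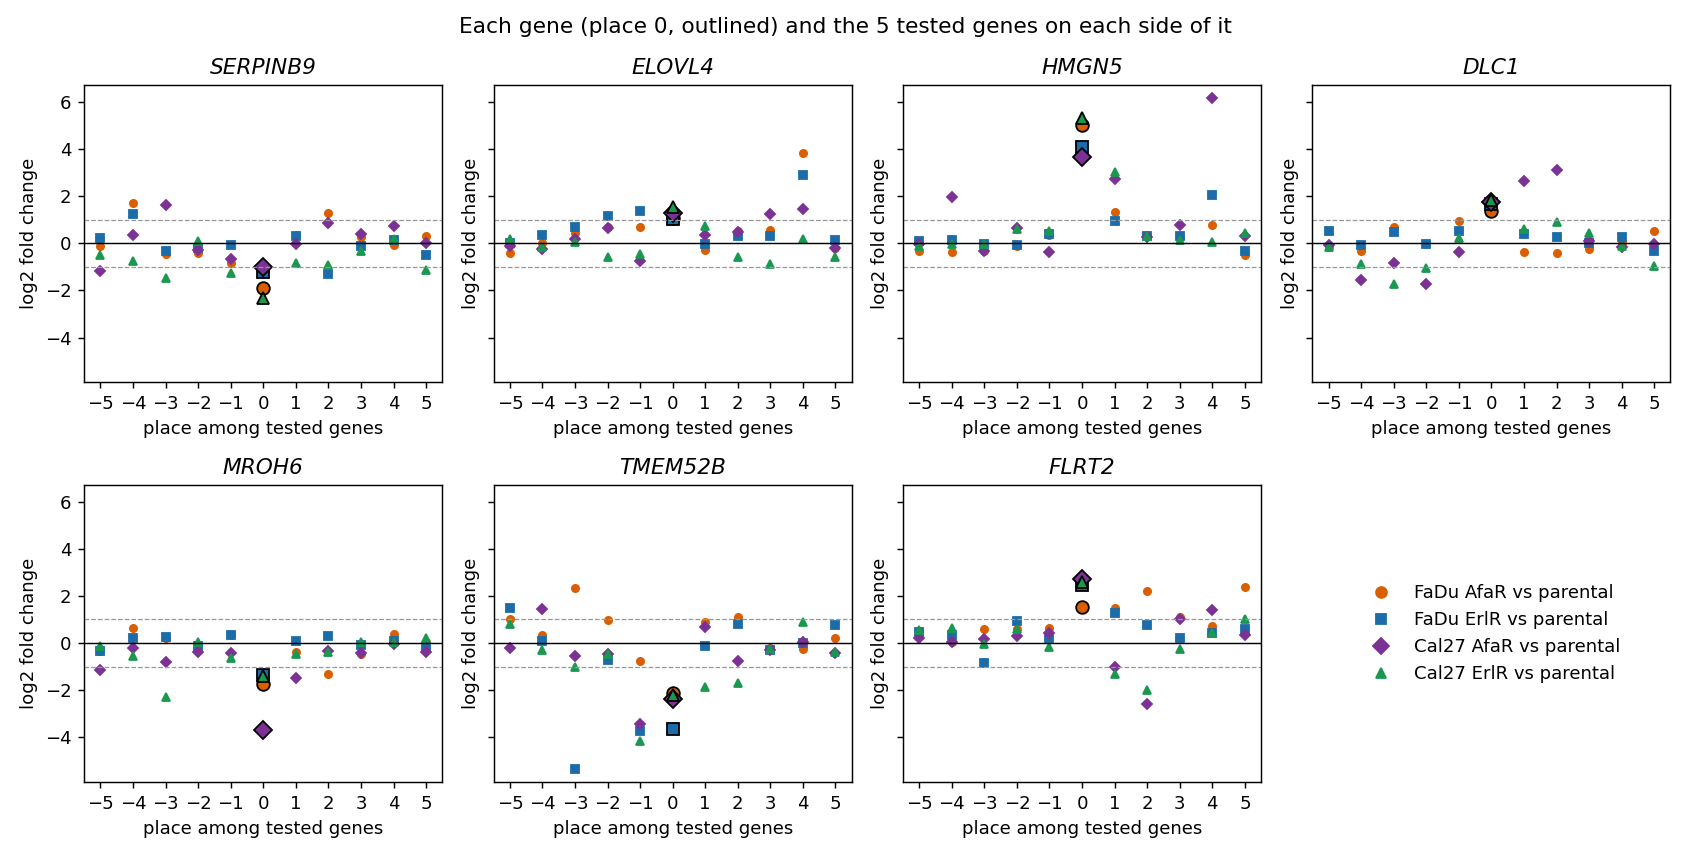
Log2 fold changes of each of the 7 genes (place 0, outlined) and of the 5 tested genes on each side by position on the chromosome, in the 4 resistant models. SH3BGRL, at place 1 beside HMGN5, lies between 0.95 and 3.00, and OLR1, at place -1 beside TMEM52B, between -4.14 and -0.76.

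The choice of the genes did not use the difference between the afatinib and erlotinib models, so it was tested. In FaDu none of the 7 was called, against 5.94% of all tested genes. SERPINB9 (log2 difference of AfaR from ErlR -0.69, standard error 0.181, adjusted p = 0.0339 from edgeR) and HMGN5 (0.95, standard error 0.262, adjusted p = 0.0388) passed the p threshold but stayed under 2-fold. FLRT2 had 8.05 CPM on average in FaDu AfaR and 15.4 CPM in FaDu ErlR, a log2 difference of -0.94 (standard error 0.401, adjusted p = 0.138 from edgeR). TMEM52B had a log2 difference of 1.55 with a standard error of 0.770 (adjusted p = 0.194 from edgeR), too wide to tell. The log2 differences of ELOVL4, DLC1 and MROH6 were 0.04, -0.28 and -0.39, with standard errors of 0.185, 0.310 and 0.316.

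In Cal27 3 of the 7 were called, against 27.1% of all tested genes. MROH6 was lower in AfaR than in ErlR cells, 3.69 against 18.3 CPM on average, a log2 difference of -2.28 (standard error 0.231, adjusted p = 6.61e-05 from edgeR). SERPINB9 was higher in AfaR cells by 1.32 on the log2 scale (standard error 0.250, adjusted p = 0.00209 from edgeR). HMGN5 was lower in AfaR cells by a log2 difference of -1.68 (standard error 0.538, adjusted p = 0.0268 from edgeR), and this call rested on single libraries. It was -0.49 without Cal27 ErlR replicate 2, and was lost as well without either Cal27 AfaR replicate 1 (-1.57) or replicate 2 (-1.80). DLC1 (-0.07, standard error 0.186), FLRT2 (0.12, 0.214), ELOVL4 (-0.25, 0.283) and TMEM52B (-0.19, 0.643) were not called.

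The parental cells of the lines were compared in a fit of all 12 libraries, in which 31.6% of 16240 genes were called. MROH6 was higher in Cal27 than in FaDu by 2.62 on the log2 scale (standard error 0.238, adjusted p = 2.11e-06 from edgeR). ELOVL4 was lower in Cal27, with a log2 difference of -1.22 (standard error 0.263, adjusted p = 0.00174 from edgeR). With spike-in scaling, which moves the median of all genes in this comparison to 0.62, the ELOVL4 value was -0.63 and was not called (adjusted p = 0.0647). The other 5 were not called. SERPINB9 (-0.18, standard error 0.203), FLRT2 (0.09, 0.426), TMEM52B (-0.04, 0.528) and DLC1 (0.35, 0.297) had differences within 1.2 standard errors, as did HMGN5 (-0.77, 0.942) at its few counts.

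**Figure D4:**
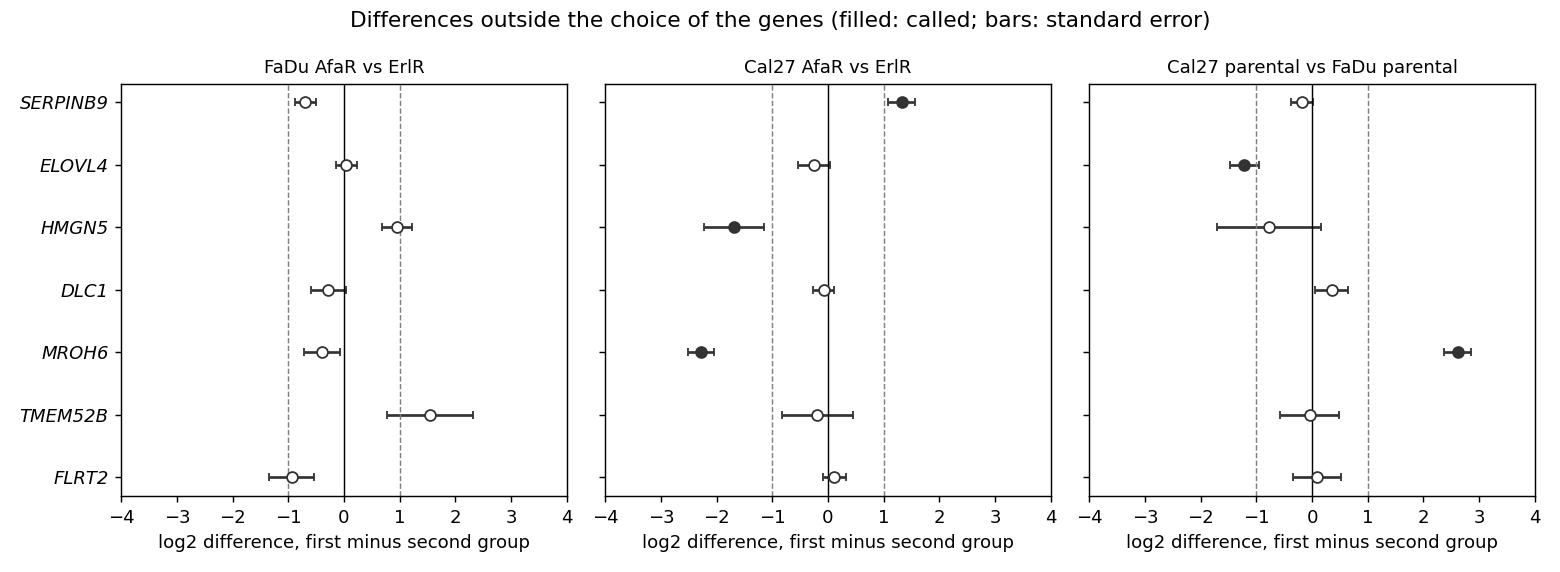
Log2 differences of the 7 genes between AfaR and ErlR cells of FaDu and of Cal27 and between the parental cells of the lines, first group minus second, with standard errors from edgeR, filled where called. No gene is called in FaDu, SERPINB9 (1.32), HMGN5 (-1.68) and MROH6 (-2.28) are called in Cal27, and ELOVL4 (-1.22) and MROH6 (2.62) are called between the parental cells.

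The families and partners of the 7 genes were followed in 6 lists of 104 genes, of which 78 were tested in all 4 models. None of the 78 was called in a single direction in all 4 models. Of all genes tested in both lines 0.0715% were, a share too small to expect any among 78, so nothing is read from this. In no model were 44 of the 78 called, and the like share of all genes was not counted. SERPINB13, lower, and ADGRL2, higher, were called alike in 3 models. CERS3, CERS4, HMGA2, NTN1, NTN4 and TNS1 were called in opposite directions in different models. Of 80 list genes tested in FaDu, 13 (16.2%, against 7.43% of all tested genes) were called with afatinib and 3 (3.75%, against 2.05%) with erlotinib. Of 83 tested in Cal27, 28 (33.7%, against 19.6%) and 21 (25.3%, against 13.5%) were called. The lists were drawn up with earlier results of these data known, so nothing is read from shares above the background. The FaDu AfaR count was 2 without FaDu parental replicate 1, 6 without parental replicate 2 and 7 without AfaR replicate 2. The FaDu ErlR count was 0 without either FaDu parental library and 1 without FaDu ErlR replicate 2.

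Around SERPINB9, the called genes were all clade B serpins and all lower, and none was a granzyme pathway gene. In Cal27 AfaR 6 of 13 tested genes fell, with a list median of -0.80 on the log2 scale beside 0.00 for all genes. They were SERPINB2 (log2 fold change -4.83), SERPINB4 (-4.39), SERPINB3 (-4.25), SERPINB13 (-4.19), SERPINB7 (-3.65) and SERPINB5 (-2.15), several of them products of squamous epithelium, and their fall stood beside the lower sum of squamous markers in Cal27 AfaR. In Cal27 ErlR 4 fell, SERPINB4 (-5.20), SERPINB3 (-4.25), SERPINB13 (-3.32) and SERPINB1 (-1.27), with the squamous marker sum at 4930 to 4960 CPM. The sum does not show single markers, and KRT14, which is part of it, had a log2 fold change of -3.19 there. In FaDu ErlR SERPINB13 fell (-2.24, adjusted p = 0.0354 from edgeR), a call lost when any of the 4 libraries compared was left out, and in FaDu AfaR none of 11 was called. The FaDu list medians were -0.34 in AfaR and 0.44 in ErlR.

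Around ELOVL4, the ceramide synthases CERS3 and CERS4 were called in opposite directions in the lines. In FaDu AfaR 4 of 21 rose, HACD4 (log2 fold change 2.68), ELOVL2 (2.46), CERS3 (2.05) and CERS4 (1.02), all at a mean of at most 10.5 CPM and each lost without FaDu parental replicate 1. CERS3, the ceramide synthase that uses very long acyl chains, also rose in FaDu ErlR (1.85), a call lost without either FaDu parental library or without FaDu ErlR replicate 2. In Cal27 CERS3 fell from 1.98 ± 0.493 CPM (SD, n = 2) in parental cells to 0 counts in AfaR and to 0.158 ± 0.137 CPM in ErlR. ACACA, which makes the malonyl-CoA used in elongation, fell in Cal27 AfaR (-1.51), and the desaturase FADS1 fell in Cal27 AfaR (-1.24) and Cal27 ErlR (-1.37). CERS4 (-2.01) fell and the fatty acid transporter SLC27A4 (1.09) rose in Cal27 ErlR. The FADS1 call was lost without either Cal27 AfaR library in AfaR and without Cal27 ErlR replicate 1 in ErlR, and so was that of SLC27A4 without Cal27 ErlR replicate 1. The list medians lay between -0.17 and -0.01.

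Around HMGN5, few chromatin proteins were called. Linker histone H1-2 rose in FaDu ErlR (log2 fold change 1.14) and in Cal27 AfaR, there from 10.6 ± 1.21 to 51.7 ± 3.30 CPM (2.29, adjusted p = 0.000109 from edgeR). HMGA2, a DNA-bending protein, fell in Cal27 AfaR (-1.48) and rose in Cal27 ErlR (1.39), and HMGB3 rose in Cal27 ErlR (1.03). None of 12 tested genes was called in FaDu AfaR. The H1-2 call in FaDu ErlR was lost without either FaDu parental library or without FaDu ErlR replicate 2, that of HMGA2 in Cal27 ErlR without Cal27 ErlR replicate 1, and that of HMGB3 without Cal27 parental replicate 2. Neither HMGN1, HMGN2, HMGN3 nor HMGN4 was called in any model.

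Around DLC1, the GTPase RHOA that it acts on was not called in any model, at log2 fold changes of 0.66 in Cal27 AfaR and 0.63 in Cal27 ErlR (adjusted p = 0.00461 and 0.00842 from edgeR, under the 2-fold limit), while RHOC rose in Cal27 ErlR from 131 ± 17.8 to 526 ± 73.1 CPM (log2 fold change 1.98, adjusted p = 7.57e-05 from edgeR). In Cal27 AfaR the myosin light chain MYL9 (2.16), TNS2 (1.41) and RHOB (1.01) rose, and CAV1 (-1.59) and TNS4 (-1.29) fell. Tensins, the focal adhesion proteins that bind DLC1, differed in direction: TNS1 (1.09) and TNS2 (1.18) rose in FaDu AfaR, and TNS3 (-1.92) and TNS1 (-1.98) fell in Cal27 ErlR. STARD8, another RhoGAP of the DLC family, rose in FaDu AfaR (1.98) from 0.432 ± 0.198 to 1.74 ± 0.0132 CPM. Calls of STARD8, TNS1 and TNS2 in FaDu AfaR were lost without either FaDu parental library or without FaDu AfaR replicate 2. That of STARD8 was also lost without FaDu AfaR replicate 1 and under 2 other settings, and that of TNS1 under 1. The TNS1 call in Cal27 ErlR was lost when any of the 4 libraries compared was left out, and under 1 other setting. For Cal27 AfaR, the TNS2 call was lost without Cal27 AfaR replicate 1, and those of RHOB and TNS4 without Cal27 AfaR replicate 2. The RHOB call was lost without Cal27 parental replicate 1 as well. In FaDu ErlR none of 22 was called.

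Around FLRT2, the list held the FLRT family and its receptors, and also genes such as NTN1, NTN4 and NEO1. This list gave the most calls of any list in FaDu AfaR, Cal27 AfaR and Cal27 ErlR. The latrophilin ADGRL2 rose in FaDu AfaR (log2 fold change 1.57), Cal27 AfaR (4.07) and Cal27 ErlR (2.55), and in Cal27 AfaR it went from 5.10 ± 0.365 to 85.3 ± 21.7 CPM (adjusted p = 3.21e-06 from edgeR). FGFR1, which FLRT proteins can bind, rose in FaDu AfaR (2.03) and in Cal27 AfaR, there from 0.962 ± 0.0402 to 66.5 ± 1.91 CPM (6.10, adjusted p = 9.32e-07 from edgeR). Cal27 AfaR had 8 of 14 higher and 3 lower, with a list median of 1.55. The others higher there were UNC5C (3.15, from 4 counts in parental cells), ADGRL3 (2.44), NTN1 (2.27), NEO1 (2.12), NTN4 (1.61) and ADGRL1 (1.49), beside the higher sum of fibroblast markers in that group. UNC5B (-1.94), FLRT3 (-1.98) and FGFR3 (-1.86) fell there. Cal27 ErlR had ADGRL2 higher and 5 lower, with a median of -1.45. UNC5A fell there from 14.3 ± 4.84 to 0.372 ± 0.165 CPM (-5.25, adjusted p = 7.57e-05 from edgeR), FGFR3 (-2.77), NTN4 (-2.01) and NTN1 (-1.53) also fell, and FLRT3 went from 92 counts in both parental libraries together to 1 count. In FaDu AfaR ADGRL3 (1.83) and NTN4 (1.90) rose and NTN1 (-1.19) and UNC5B (-1.002) fell, and in FaDu ErlR none of 11 was called. Without FaDu parental replicate 1, the FaDu AfaR calls of ADGRL2, ADGRL3, NTN4 and UNC5B were lost, whereas those of FGFR1 and NTN1 held without any single library. In Cal27 AfaR those of UNC5C, ADGRL3 and FLRT3 were lost without Cal27 AfaR replicate 1 and that of UNC5B without replicate 2. Many of these calls were lost without other libraries as well, and that of UNC5B in FaDu AfaR under 6 other settings.

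Of the paralogs of TMEM52B and MROH6, 3 of 8 were tested. TMEM52 fell in Cal27 AfaR (log2 fold change -2.83) and Cal27 ErlR (-2.53), from 56 counts in both parental libraries together to 8 and 9 counts, and both calls were lost without Cal27 parental replicate 1.

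**Figure D5:**
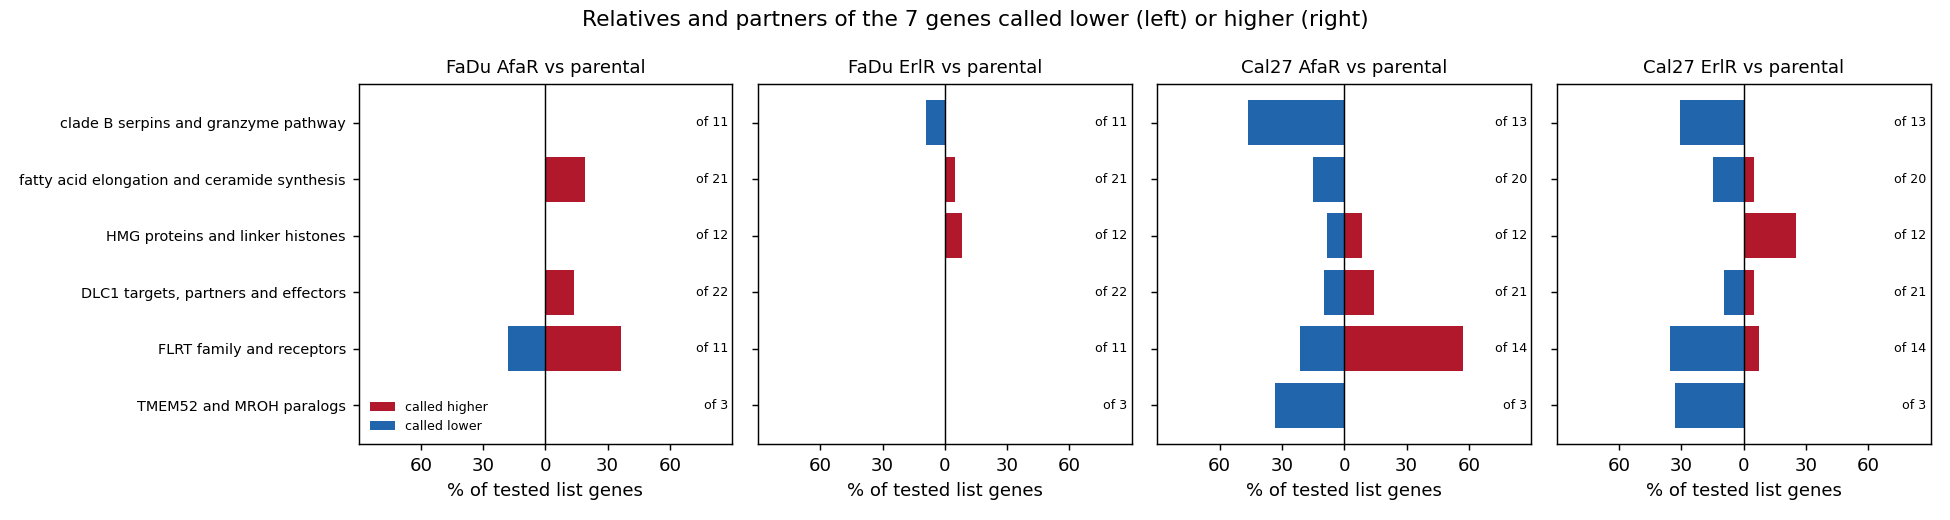
Share of the tested genes of each list called lower (bars to the left, blue) or higher (bars to the right, red) in each resistant model, in percent, with the number tested at the right edge. In Cal27 AfaR the list of the FLRT family and receptors, which also holds NTN1, NTN4 and NEO1, leans higher (8 higher, 3 lower of 14). The list of clade B serpins and the granzyme pathway leans lower there (0 higher, 6 lower of 13).

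Across the 12 libraries, the pattern of each gene was also set beside 13059 others by Pearson's r of log2(CPM + 1) centred within each line, a description over libraries that share their groups. The most like HMGN5 were CCDC171 (r = 0.942), ELOVL4 (0.935) and GLDC (0.926), and the most like ELOVL4 were HMGN5 (0.935) and STAC (0.931). Both HMGN5 and ELOVL4 were chosen for being higher in every resistant model. A high r between these genes was therefore likely from the start and is no test. UST was among the 3 most like both DLC1 (0.948) and FLRT2 (0.938), the others being RSPRY1 (0.956) and B4GALT4 (0.945) for DLC1 and RAB5A (0.919) and PLEKHA5 (0.918) for FLRT2. For the lower genes they were ZFAS1 (0.943), ANKRD10 (0.935) and PIM3 (0.933) for SERPINB9, TMOD3 (0.970), EIF4B (0.969) and PATJ (0.961) for MROH6, and RBMXL1 (0.949), MRPL50 (0.933) and ELP5 (0.931) for TMEM52B.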

How the data were processed

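Poly(A) RNA of 12 libraries was analysed. Per the labels, the authors' tools were Trimmomatic 0.36, STAR 2.5.2b and featureCounts of Subread 1.5.2 on GRCh38. The authors deposited unnormalized read counts for Ensembl genes and for 92 ERCC spike-ins (3.86% to 5.82% of counts, left out of library sizes), and tables of a normalized signal, made by the authors by dividing each library's counts by a single factor. Symbols were found for 56948 of 58051 identifiers. The count test was edgeR 4.0.16 under R 4.3.3 (TMM, filterByExpr, glmQLFit, glmQLFTest, Benjamini-Hochberg adjustment over all genes), in a fit of 6 libraries per line (15092 genes in FaDu, 15269 in Cal27) and a fit of all 12 for parental cells and for the difference between the lines, checked on simulated data. Standard errors are the log2 fold change divided by the square root of F. The p-values measure the spread between 2 libraries per group, and depth was 16334937 to 23399259 counts. The genes, the lists and the neighbour rule were chosen with earlier results of these data known. The 7 genes, called list genes and called neighbours (5 tested genes on each side), and 3 genes of most like pattern were named. DESeq2 1.42.0, other filters, scalings and fits, a replicate block and leaving out each library were alternatives, and the test of the difference between the lines was chosen after seeing the data. A few genes picked out by these rules are not reported here.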

Additional observations from a re-analysis of the deposited data

Results flagged for a closer look

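In 3 of the 7 genes the difference between the afatinib and erlotinib models was not the same in the 2 lines, by an interaction term in the edgeR fit over 12 libraries, a test chosen after seeing the data, which called 16.5% of all 16240 genes. SERPINB9 differed most surely, with the AfaR minus ErlR difference in FaDu below that in Cal27 by a log2 value of -1.98 (standard error 0.314, adjusted p = 0.000769 from edgeR). All FaDu AfaR libraries were below the FaDu ErlR libraries and both Cal27 AfaR libraries above the Cal27 ErlR libraries. HMGN5 went the other way, at 2.67 (standard error 0.661, adjusted p = 0.0104 from edgeR), a value of 1.46 (adjusted p = 0.0491) without Cal27 ErlR replicate 2. MROH6 had 1.92 (standard error 0.379, adjusted p = 0.00284 from edgeR), with AfaR minus ErlR differences of -0.39 in FaDu, not called there, and -2.28 in Cal27.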

How the results depend on the processing

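The 412 alternative values of the 7 genes in the resistant models all kept their sign, with a smallest size of 0.72 on the log2 scale. These values reuse the libraries and contrasts that chose the genes, so kept signs were likely from the start and are no test. All 7 stayed over 2-fold in all 4 models with DESeq2 and with the replicate block. So they did with only the 4 libraries compared and with all 12 in a fit. The number over 2-fold was 6 with no filter (without ELOVL4) and with upper-quartile scaling (without SERPINB9), and 5 with ERCC scaling (without SERPINB9 and MROH6). With at least 10 counts in every library the number was 4 of the 5 tested (without SERPINB9), as HMGN5 and TMEM52B were not tested. It was 5 without FaDu parental replicate 1 (ELOVL4 and FLRT2) or Cal27 AfaR replicate 2 (SERPINB9 and ELOVL4), and 6 without FaDu AfaR replicate 2 or FaDu ErlR replicate 1 (ELOVL4) or Cal27 parental replicate 2 (SERPINB9). Of 98 calls of named list genes and neighbours, 42 were lost without some library and 10 under another setting. With ERCC scaling the median of all genes, from -0.03 to 0.04 with TMM in every comparison, was 0.18 in FaDu AfaR, 0.49 in FaDu ErlR, -0.29 in FaDu AfaR against ErlR and 0.62 between the parental cells. A lone library left in a group is assumed to vary like the other groups, and genes of a few counts, such as HMGN5 in parental cells, limit what depth allows. The cause of these shifts was not tested.

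With ERCC scaling FLRT2 became called between FaDu AfaR and ErlR (-1.28), and ELOVL4 lost its call between parental cells (-0.63). HMGN5 became called between FaDu AfaR and ErlR with upper-quartile scaling (1.02), and with no limit on the fold change it passed at 0.95 and SERPINB9 at -0.69. HMGN5 between Cal27 AfaR and ErlR ranged from -2.34 to -0.49 over libraries left out. With no limit on the fold change the genes called were 2694 (AfaR) and 631 (ErlR) in FaDu, 5745 (AfaR) and 4215 (ErlR) in Cal27, 2371 in FaDu AfaR against ErlR, 7579 in Cal27 AfaR against ErlR, 9022 between parental cells and 4251 for the difference between the lines; list genes called were 24, 8, 51 and 40, neighbours called 16 in FaDu AfaR and 20 in Cal27 ErlR, and genes called in all 4 models 22 higher and 9 lower. FaDu ErlR had 701 called genes, 5 list genes and 7 neighbours with no filter, and 1576, 13 and 15 with ERCC scaling. At least 10 counts gave 3066 genes between parental cells and 13 list genes in Cal27 ErlR. With 3 neighbours on each side 4 were called in FaDu AfaR and 9 in Cal27 AfaR. Genes over 2-fold in all 4 models were 220 higher and 345 lower with no filter, 14 and 2 with at least 10 counts, 58 and 8 with ERCC scaling, 66 and 33 with 12 libraries in a fit, and 19 higher with 4 libraries and 18 with the authors' normalized counts. Those called in all 4 were 13 higher and 13 lower with no filter, 26 higher with ERCC scaling and 1 lower with at least 10 counts. Over libraries left out, called genes ranged from 243 to 1098 in FaDu AfaR, 66 to 310 in FaDu ErlR and 343 to 914 between them, list genes from 2 to 13 and 0 to 4, neighbours from 1 to 6 and 1 to 2, genes called higher in all 4 from 2 to 7, called lower from 0 to 7, and over 2-fold lower from 13 to 27.

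The replicate numbers did not pair the libraries, with correlations of same-numbered deviations from -0.249 to 0.246. The replicate block gave 7 genes called lower in all 4 models in place of 4, and 5 of the 7 described genes were called in all 4.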

Other observations

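Called neighbours of the 7 genes lay near them as well as far off. NAPRT, 1.8 kb from MROH6, fell in Cal27 AfaR (log2 fold change -1.49, adjusted p = 0.000165 from edgeR), where MROH6 was lower. It was not called in the other models. TOP1MT, 206 kb from MROH6, also fell in Cal27 AfaR (-1.15). Of the 10 neighbours of MROH6, 0 were called higher in Cal27 AfaR. SERPINB1, next to SERPINB9 at 45.3 kb, fell in Cal27 ErlR (-1.27), where SERPINB9 was lower. GALC, a lysosomal enzyme that removes galactose from ceramide lipids and lies 2183 kb from FLRT2, rose in FaDu AfaR from 4.35 ± 0.175 to 20.4 ± 0.805 CPM (SD, n = 2; log2 fold change 2.21, adjusted p = 0.000570 from edgeR). It fell in Cal27 AfaR to 0.753 ± 0.0803 CPM (-2.59, adjusted p = 0.000860) and in Cal27 ErlR to 1.16 ± 0.257 CPM (-2.00, adjusted p = 0.00446) from 4.58 ± 0.623 CPM, while FLRT2 was higher in all 3. Of the neighbours of DLC1, ZDHHC2 (3.10), at 3551 kb, and TUSC3 (2.62), at 1813 kb, rose in Cal27 AfaR as DLC1 was higher there, and FDFT1 (-1.55), a cholesterol synthesis enzyme at 1244 kb, fell, the last a call lost without either Cal27 AfaR library. GABARAPL1, an autophagy gene 20.7 kb from TMEM52B, fell in Cal27 ErlR (-1.89), and KLHL4, 6316 kb from HMGN5, rose in Cal27 AfaR from 0.379 ± 0.0408 to 27.2 ± 2.73 CPM.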
